A study of Homo sapiens with 8 samples.

Results

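The ERBB receptor genes EGFR, ERBB2 and ERBB3 and the EGF family ligand genes AREG, EREG, TGFA, HBEGF, BTC and EPGN were followed, 9 genes among the 28520 rows of each expression table. They were taken by symbol, and each symbol stood on 1 row of its own. RNA-seq was run on 4 established human lines of pancreatic ductal adenocarcinoma (PDA), Panc.8, HPAF-II, Panc.05.04 and Panc.10.05, and no treatment other than transfection is labelled. In each line 1 culture had received a control small interfering RNA (siRNA), the untargeted reference, and 1 had received a PDX1 siRNA. PDX1 is a homeobox protein that directs the formation of the pancreas and is kept in islet beta cells. RNA was taken 3 days later, giving 8 libraries in 2 groups of 4. Each line was sampled once per siRNA, so differences within a line are differences between 2 libraries and have no test. The lines served as the replicates of the treatment. Values are FPKM, fragments scaled to transcript length and to library depth, so that levels of different genes can be compared. Each line had its own table, and no source used here states a common scaling of the tables, so levels set across lines carry that limit.

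EGFR, ERBB2 and ERBB3 are cell surface receptors of the ERBB family. Ligand binding pairs the receptors, the kinase domains phosphorylate the tails, and the signal passes through GRB2, SOS and RAS to the MAP kinases and through PI3 kinase to AKT. The ligands are made as membrane-anchored precursors and are released by proteases such as ADAM17. In the pancreas TGFA and EGFR are known from acinar-to-ductal metaplasia.

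The libraries had FPKM totals from 371329 to 428778, with 11186 to 11477 rows at 1 FPKM or more. PDX1, the targeted gene, was lower with its siRNA in every line, at 0.914 and 0.372 FPKM in Panc.8 (control siRNA and PDX1 siRNA), 9.61 and 5.37 FPKM in HPAF-II, 1.41 and 0.416 FPKM in Panc.05.04, and 0.188 and 0.0998 FPKM in Panc.10.05. HPAF-II was the only line in which PDX1 exceeded 1.41 FPKM. In Panc.8 and Panc.10.05 it was under 1 FPKM in both libraries, so the differences there are imprecise. The mean log2 ratio of FPKM + 1, PDX1 siRNA over control, was -0.52 ± 0.30 (SD, n = 4 lines; adjusted p = 0.898 in limma). In Panc.10.05 the ratio was -0.11, and the authors' deposited Cuffdiff table did not test PDX1 there. In the other lines their Cuffdiff q for PDX1 was 0.9987 or more. Carcinoma epithelial markers were looked up to check the label. KRT8, KRT18 and EPCAM were at 31.96 FPKM or more in all 8 libraries. In Panc.05.04, however, KRT19 was at 1.55 and 0.921 FPKM, KRT7 at 0.868 and 0.709 FPKM and the cadherin CDH1 at 1.40 and 2.12 FPKM. In the other 3 lines these markers were at 76.9 FPKM or more, so the ductal keratins were close to absent in Panc.05.04. Endothelial markers stayed at or below 0.523 FPKM, and fibroblast markers other than COL1A1 at or below 0.544 FPKM. COL1A1 ranged from 0.377 to 5.39 FPKM. The leukocyte-defining gene PTPRC did not exceed 0.0116 FPKM and CD3E did not exceed 0.842 FPKM. The other leukocyte markers were higher, CD68 at 8.16 to 75.7 FPKM and CD14 at 0.599 to 17.3 FPKM.

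EPGN, EREG, AREG and BTC lie side by side on chromosome 4 of hg38. The rows place EPGN at 74308470 to 74316803, EREG at 74365143 to 74388760 and AREG at 74445098 to 74455009, all on the forward strand, and BTC at 74746238 to 74794672 on the reverse strand. EREG ends 56.3 kb before AREG starts, and the whole cluster spans 486 kb. The other ligand rows are TGFA on chromosome 2 (70447280 to 70554015) and HBEGF on chromosome 5 (140332843 to 140346603), both on the reverse strand. The receptor rows are EGFR on chromosome 7 (55019032 to 55207338), ERBB2 on chromosome 17 (39688084 to 39728662) and ERBB3 on chromosome 12 (56080025 to 56103507). All are protein-coding genes whose rows take in exons and introns. In GENCODE release 29 the antisense gene EGFR-AS1 lies inside EGFR. The ends of PGAP3 and MIEN1 on the other strand overlap the ends of ERBB2. Another protein-coding gene, on the same strand as ERBB3, overlaps the end of ERBB3. Whether counting used strand is not given in the sources used here, so reads of partners on the other strand cannot be told apart. For the ERBB3 partner, use of strand would not separate the reads. EGFR-AS1 did not exceed 0.0868 FPKM on its row.

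Promoters are shown for AREG and HBEGF, the members with a 2-fold difference in some line, and for EREG, the neighbour of AREG that was near 0 in lines where AREG was not. RefSeq (GRCh38.p14) entries were found for 8 of the 9 genes, each with 250 bases before and 50 bases after the annotated start. The windows are chr4:74444886-74445185 on the forward strand for AREG, chr4:74364895-74365194 on the forward strand for EREG and chr5:140346554-140346853 on the reverse strand for HBEGF. Capitals mark matches, on either strand, to the cyclic AMP response element TGACGTCA, the AP-1 site TGANTCA, the homeodomain site TAATTA and the TATA box TATAAA.
AREG: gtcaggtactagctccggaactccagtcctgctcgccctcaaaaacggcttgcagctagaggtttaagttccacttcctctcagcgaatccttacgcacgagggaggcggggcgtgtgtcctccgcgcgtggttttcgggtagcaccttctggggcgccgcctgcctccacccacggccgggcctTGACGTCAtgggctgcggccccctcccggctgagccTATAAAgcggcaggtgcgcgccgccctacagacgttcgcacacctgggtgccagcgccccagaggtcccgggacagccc
EREG: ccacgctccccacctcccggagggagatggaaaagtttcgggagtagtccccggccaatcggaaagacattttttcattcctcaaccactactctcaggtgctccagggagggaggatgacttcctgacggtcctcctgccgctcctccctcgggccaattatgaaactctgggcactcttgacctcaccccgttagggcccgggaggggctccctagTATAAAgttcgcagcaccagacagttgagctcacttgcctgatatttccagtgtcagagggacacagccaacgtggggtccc
HBEGF: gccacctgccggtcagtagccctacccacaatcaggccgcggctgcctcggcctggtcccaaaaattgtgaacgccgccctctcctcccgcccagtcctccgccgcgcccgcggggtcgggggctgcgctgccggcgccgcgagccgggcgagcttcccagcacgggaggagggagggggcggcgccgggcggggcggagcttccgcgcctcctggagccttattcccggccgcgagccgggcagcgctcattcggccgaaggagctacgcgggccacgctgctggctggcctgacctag
The AREG window held the cyclic AMP response element, starting 65 bases before the annotated start, and a TATA box 29 bases before it. The EREG window held a TATA box starting 32 bases before its start, and the HBEGF window held none of the 4 motifs. Of 35116 promoter windows of the same length, 1.85% held the cyclic AMP response element, 7.71% the AP-1 site, 4.84% the homeodomain site and 11.5% the TATA box. A match is a match of letters and is no measurement of binding.

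EGFR, the receptor of all 6 ligands, was expressed at similar levels in the 4 lines. In Panc.8 the control library had 60.3 FPKM and the PDX1 siRNA library 55.8 FPKM, and HPAF-II had 61.2 and 60.8 FPKM in the same order. In Panc.05.04 it was at 36.3 and 48.9 FPKM, and in Panc.10.05 at 47.9 and 31.5 FPKM. The order was HPAF-II, Panc.8, Panc.05.04 and Panc.10.05, and the last pair overlapped. The line means of log2(FPKM + 1) spanned 0.64 for EGFR, less than for most genes, since 14.9% of the 12110 tested genes (mean of at least 1 FPKM over the libraries) had a smaller span and the median span was 1.23.

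ERBB2, the family member with no known ligand of its own and the preferred partner of the others, was at 21.9 and 22.1 FPKM in Panc.8 and 45.9 and 43.2 FPKM in HPAF-II. It was at 19.7 and 18.1 FPKM in Panc.05.04 and 42.5 and 54.8 FPKM in Panc.10.05. Panc.10.05 and HPAF-II were the high lines and overlapped, and both lay above Panc.8 and Panc.05.04. ERBB2 was below EGFR in 7 of the libraries, and with PDX1 siRNA in Panc.10.05 it was above EGFR, 1.74 times its FPKM against 0.888 times in the control. The genes that overlap its ends are given beside it, since their part in the ERBB2 values was not tested. In Panc.10.05 MIEN1 was at 66.7 and 83.8 FPKM and PGAP3 at 4.41 and 8.26 FPKM, both higher like ERBB2, and in Panc.05.04 MIEN1 was at 34.8 and 26.9 FPKM and PGAP3 at 2.79 and 1.73 FPKM, both lower like ERBB2. In Panc.8 MIEN1 was at 47.2 and 43.99 FPKM and PGAP3 at 6.72 and 6.15 FPKM, lower where ERBB2 was 100.8% of control. In HPAF-II MIEN1 was at 55.8 and 58.1 FPKM and PGAP3 at 2.79 and 2.18 FPKM, so MIEN1 was higher where ERBB2 was lower.

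ERBB3, which has a weak kinase and signals to PI3 kinase as the partner of ERBB2, differed far more between lines. It was at 77.6 and 71.2 FPKM in HPAF-II, 33.1 and 43.4 FPKM in Panc.10.05 and 15.7 and 19.1 FPKM in Panc.8. In Panc.05.04 it was at 0.922 and 0.799 FPKM. No line overlapped the next. The highest control level was 84.1 times the lowest, and the span of 5.34 in log2(FPKM + 1) was larger than that of 97.8% of tested genes. Panc.05.04 thus expressed EGFR and ERBB2 with little ERBB3, and it is the line with the low ductal keratins.

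**Figure D1:**
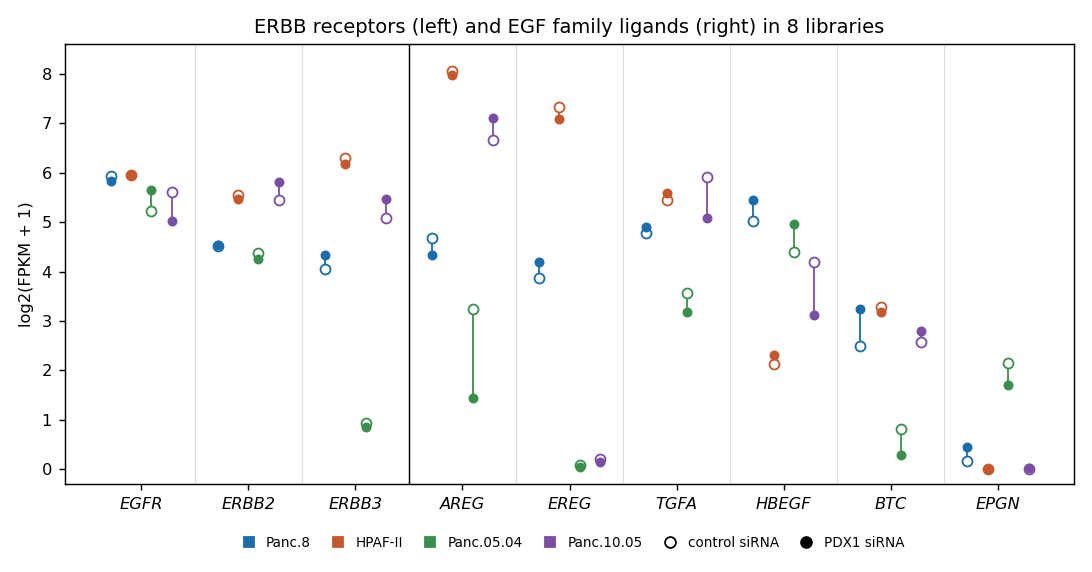
Each point is the level of a gene in 1 library as log2(FPKM + 1), open for control siRNA and filled for PDX1 siRNA, with a line joining the libraries of a cell line and colour giving the line. EGFR points of all lines lie close together, whereas ERBB3, AREG and EREG spread by more than 5 units between lines and the within-line joins are short, the longest being AREG in Panc.05.04.

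The ligands varied more between lines than EGFR and ERBB2 did. AREG (amphiregulin), a low-affinity EGFR ligand of epithelia, was the most abundant ligand in HPAF-II, at 264 and 249 FPKM, and in Panc.10.05, at 99.96 and 137 FPKM. It was at 24.5 and 19.3 FPKM in Panc.8 and at 8.41 and 1.71 FPKM in Panc.05.04. The 4 lines did not overlap, and its span of 5.67 exceeded that of 98.3% of tested genes. EREG (epiregulin), which binds EGFR and ERBB4, was at 159 and 134 FPKM in HPAF-II and 13.7 and 17.4 FPKM in Panc.8. It was at 0.156 and 0.111 FPKM in Panc.10.05 and at 0.0574 and 0.0288 FPKM in Panc.05.04. EREG had the largest span of the 9 genes, 7.14, rank 64 among the tested genes.

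AREG and its neighbour EREG thus stood in different proportion by line. AREG was 1.79 and 1.11 times EREG in FPKM in Panc.8 (control siRNA and PDX1 siRNA) and 1.66 and 1.86 times EREG in HPAF-II. In Panc.10.05 it was 640.5 and 1230 times EREG, and in Panc.05.04 147 and 59.2 times. The large ratios rest on EREG values near the floor and are imprecise. The genes on either side of the cluster were low throughout. MTHFD2L, a mitochondrial folate enzyme, was between 0.292 and 1.41 FPKM, and PARM1 between 0 and 0.821 FPKM.

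EPGN (epigen), a low-affinity EGFR ligand at the other end of the cluster, was nearly confined to Panc.05.04 in these libraries. It was at 3.43 and 2.28 FPKM there, 0.128 and 0.362 FPKM in Panc.8 and 0 and 0.0216 FPKM in Panc.10.05, and it was listed at 0 in both HPAF-II libraries. Its mean over the libraries was 0.778 FPKM, so it was the 1 member that missed the level needed for the test across lines. BTC (betacellulin), known from the islet and able to bind EGFR and ERBB4, had its highest line mean in HPAF-II, at 8.73 and 8.12 FPKM. It was at 4.60 and 8.51 FPKM in Panc.8, 4.98 and 5.98 FPKM in Panc.10.05 and 0.764 and 0.225 FPKM in Panc.05.04. HPAF-II, Panc.8 and Panc.10.05 overlapped with their neighbours in the BTC order, and Panc.05.04 lay below them.

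**Figure D2:**
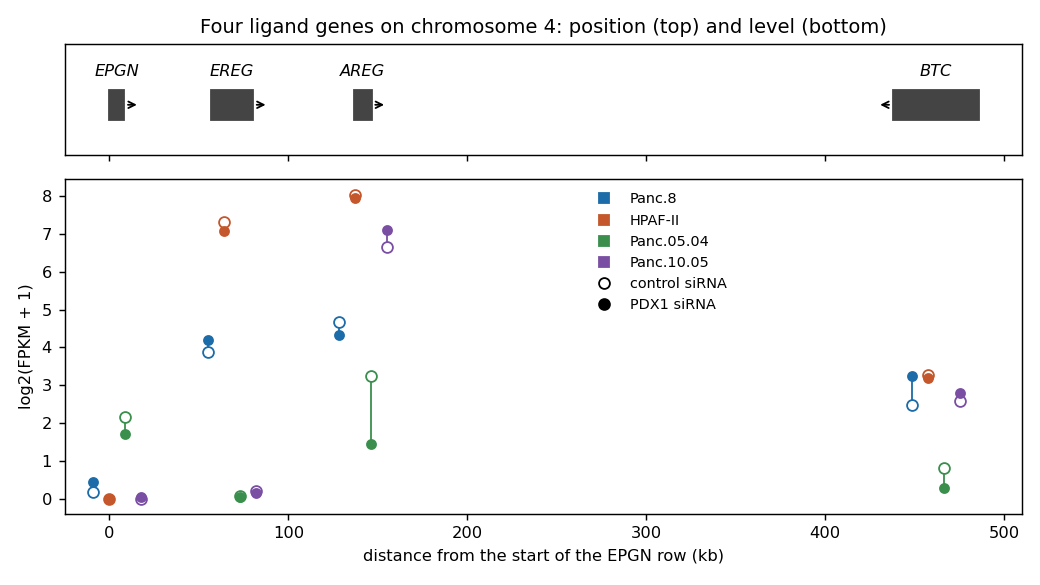
Top, the rows of EPGN, EREG, AREG and BTC by distance in kilobases from the start of the EPGN row, with arrows for the direction of transcription. Bottom, log2(FPKM + 1) in each line (points set side by side at each gene, open for control siRNA and filled for PDX1 siRNA): Panc.05.04 is the highest line for EPGN and the lowest for the other 3 genes, and Panc.10.05 is high for AREG and near 0 for EREG.

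TGFA, a high-affinity EGFR ligand, was at 42.3 and 46.8 FPKM in HPAF-II, 58.8 and 33.0 FPKM in Panc.10.05, 26.5 and 29.04 FPKM in Panc.8 and 10.8 and 8.09 FPKM in Panc.05.04. HPAF-II and Panc.10.05 overlapped. HBEGF, a heparin-binding ligand of EGFR and ERBB4, had another order from the rest. It was highest in Panc.8 at 31.4 and 42.6 FPKM, followed by Panc.05.04 at 20.1 and 30.2 FPKM, Panc.10.05 at 17.2 and 7.71 FPKM and HPAF-II at 3.40 and 3.98 FPKM, with no overlap. By the line mean of log2(FPKM + 1), HPAF-II was the highest line for AREG, EREG, TGFA and BTC, although the highest single TGFA library was the Panc.10.05 control and the BTC libraries overlapped those of Panc.8. HPAF-II was the lowest line for HBEGF and was listed at 0 for EPGN.

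Summed over the 6 ligands, the FPKM was 477 and 442 in HPAF-II, 181 and 184 in Panc.10.05, 101 and 117 in Panc.8 and 43.5 and 42.6 in Panc.05.04. The sum was between 92.6% and 116% of control after PDX1 siRNA in the 4 lines, a description of single libraries. In Panc.05.04 and Panc.10.05 the make-up of the sum differed between the libraries although its size was close. In Panc.05.04 HBEGF made up 46.1% of the ligand FPKM in the control and 71.0% with PDX1 siRNA, and AREG 19.3% and 4.01%. In Panc.10.05 AREG made up 55.2% and 74.6%, TGFA 32.5% and 17.9%, and HBEGF 9.49% and 4.19%. In HPAF-II AREG made up 55.3% and 56.4% and EREG 33.3% and 30.3%, and in Panc.8 HBEGF led with 31.2% and 36.4%.

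**Figure D3:**
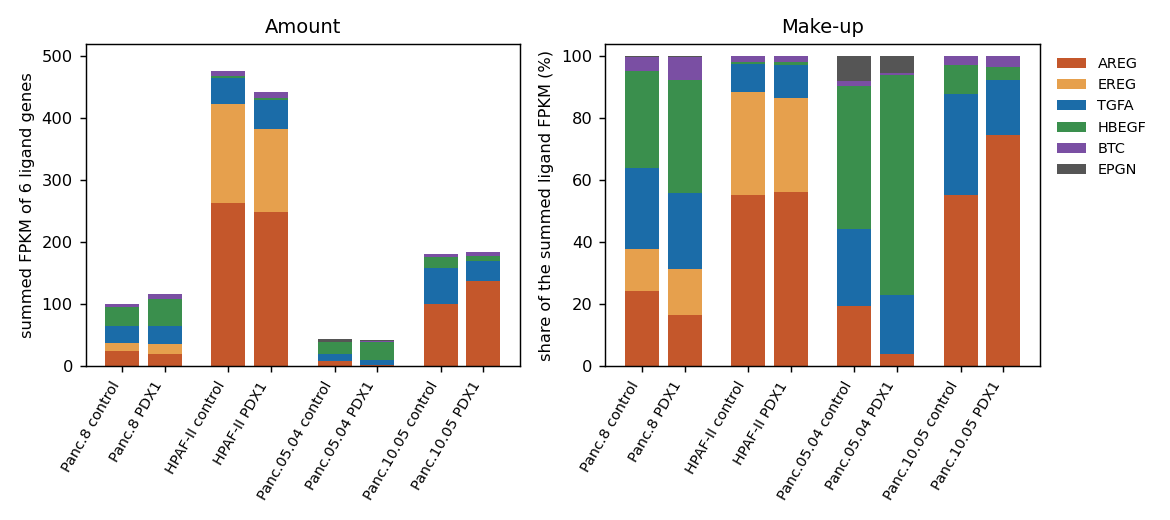
Bars stack the 6 ligand genes for each of the 8 libraries, left as summed FPKM and right as a share of that sum in percent, with colour giving the gene. HPAF-II has the tallest bars and is mostly AREG and EREG, Panc.05.04 has the shortest with HBEGF as the largest share, and the AREG share is smaller with PDX1 siRNA in Panc.05.04 and larger in Panc.10.05.

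The comparison across lines asked whether PDX1 siRNA went with a difference that the lines shared. Of the members, 0 of the 8 tested members passed an adjusted p of 0.05 (limma on log2(FPKM + 1) with the line as a block, Benjamini-Hochberg over 12110 genes), where 0% of all genes passed. Before adjustment, 440 genes and none of the 8 were under a p of 0.05 in limma. No member had the same sign in all 4 lines, which 13.2% of tested genes had. The mean log2 ratio of PDX1 siRNA over control was -0.44 ± 0.96 for AREG (SD, n = 4 lines; adjusted p = 0.898 in limma), lower in 3 of 4 lines, with a 95% interval from -1.30 to 0.42. Without Panc.05.04 the AREG mean was 0.01. TGFA had a mean of -0.23 ± 0.46 (SD, n = 4; adjusted p = 0.898 in limma), lower in 2 lines, with an interval from -0.67 to 0.20, and without Panc.10.05 its mean was -0.04.

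The means of the other members were closer to 0 than that of TGFA. EREG was at 0.00 ± 0.24, HBEGF at 0.03 ± 0.74, BTC at 0.09 ± 0.54, ERBB2 at 0.04 ± 0.22, ERBB3 at 0.11 ± 0.25 and EGFR at -0.07 ± 0.41 (log2 ratio, SD, n = 4 lines), with adjusted p between 0.901 and 0.997 in limma. These intervals do not show that the genes were alike under both siRNAs. That of HBEGF ran from -0.64 to 0.70, and that of the narrowest, ERBB2, from -0.21 to 0.29. Leaving out Panc.10.05 moved the HBEGF mean to 0.39 and the EGFR mean to 0.10. The p-values and intervals rest on the spread between 4 lines that each gave 1 pair of libraries. In limma that spread is drawn toward the spread of genes of like level, so the intervals do not follow from the SD alone.

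Within lines, the ligand ratios were larger in size than the receptor ratios. The median size of the log2 ratio was 0.12 over the 12 receptor values (3 genes in 4 lines) and 0.33 over the 20 values of the 5 tested ligands. Over all tested genes it was between 0.09 and 0.25, depending on the line. No test was made of this difference, and values of a line share its libraries.

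In Panc.05.04 AREG was at 8.41 and 1.71 FPKM, 20.3% of control or 4.93-fold lower, with a log2 ratio of FPKM + 1 of -1.80. That was the 21st lowest ratio of 12110 genes, and the largest of the 9 members in any line. Of the 6 members at 1 FPKM or more in this line AREG alone was at least 2-fold lower on that scale, against 0.639% of all such rows, and none was 2-fold higher, against 0.403%. It was also the 1 member that the authors' deposited table called, with q = 0.0209, where 0.264% of that table's tested rows were called. In bulk RNA fewer cells that make a transcript and less of it per cell cannot be told apart. The neighbouring ligands were lower too: BTC was at 29.5% of control, though under 1 FPKM in both libraries, and EPGN at 66.4%. EREG was at the floor in both. TGFA was at 74.8% of control (log2 ratio -0.38).

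HBEGF and EGFR were higher in the same pair of libraries. HBEGF was at 151% of control (log2 ratio 0.57, rank 181 from the highest), with an unadjusted p of 0.0408 and q of 0.999 in the authors' deposited table. EGFR was at 135% of control (log2 ratio 0.42, rank 452 from the highest). ERBB2 was at 91.6% and ERBB3 at 86.7% of control. Of the leukocyte marker list, CD68 was at 20.7 and 8.35 FPKM and CD14 at 1.42 and 0.599 FPKM in Panc.05.04, and CD3E was at 0. The sum of these 3 genes ran from 10.8 to 77.6 FPKM over the control libraries and from 8.95 to 93.0 FPKM over the PDX1 siRNA libraries. PTPRC was close to 0 in all libraries, as given above, and the part of such markers in the AREG difference was not tested.

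In Panc.10.05, whose PDX1 level was 0.188 FPKM or less in both libraries, HBEGF was the member with the largest difference. It was at 17.2 and 7.71 FPKM, 44.9% of control, with a log2 ratio of -1.06, the 156th lowest of the tested genes. Of the 7 members at 1 FPKM or more HBEGF alone was at least 2-fold lower, against 1.71% of all such rows, and none was 2-fold higher, against 3.09%. The authors' deposited table gave it an unadjusted p of 0.028 and a q of 0.840, and 0 members were called there, against 0.113% of its tested rows. TGFA was at 56.0% of control (log2 ratio -0.82, rank 371 from the lowest) and EGFR at 65.9% (log2 ratio -0.59). AREG was at 137% of control (log2 ratio 0.45), ERBB3 at 131%, ERBB2 at 129% and BTC at 120%. CD68 was at 50.1 and 75.7 FPKM and CD14 at 3.56 and 17.3 FPKM, higher like AREG. In Panc.8 both markers were higher (CD68 8.16 and 18.4 FPKM, CD14 2.28 and 2.57 FPKM) while AREG was lower. In HPAF-II CD68 was at 68.7 and 67.0 FPKM and CD14 at 8.86 and 7.53 FPKM, lower like AREG. The part of these markers in the AREG values was not tested. The spread of all genes was widest in this line, where 5% of tested genes had a ratio under -0.69 and 5% one over 0.77.

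In Panc.8 none of the 8 members at 1 FPKM or more differed by 2-fold, where 1.69% of all such rows were 2-fold higher and 0.197% 2-fold lower. BTC came nearest, at 4.60 and 8.51 FPKM, 185% of control, with a log2 ratio of 0.76 that ranked 265 from the highest. The authors' deposited table gave it an unadjusted p of 0.0502 and a q of 0.9996, and called 0 members, against 0.977% of its tested rows. HBEGF was at 136% of control and EREG at 127%, and AREG was the lowest member at 78.6%. In HPAF-II all ratios lay between -0.24 for EREG and 0.18 for HBEGF. None of the 8 members at 1 FPKM or more reached 2-fold there, where 0.192% of such rows were 2-fold higher and 0.166% 2-fold lower, and the authors' deposited table called 0% of its rows. EREG was at 84.3% of control, the 681st lowest ratio.

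**Figure D4:**
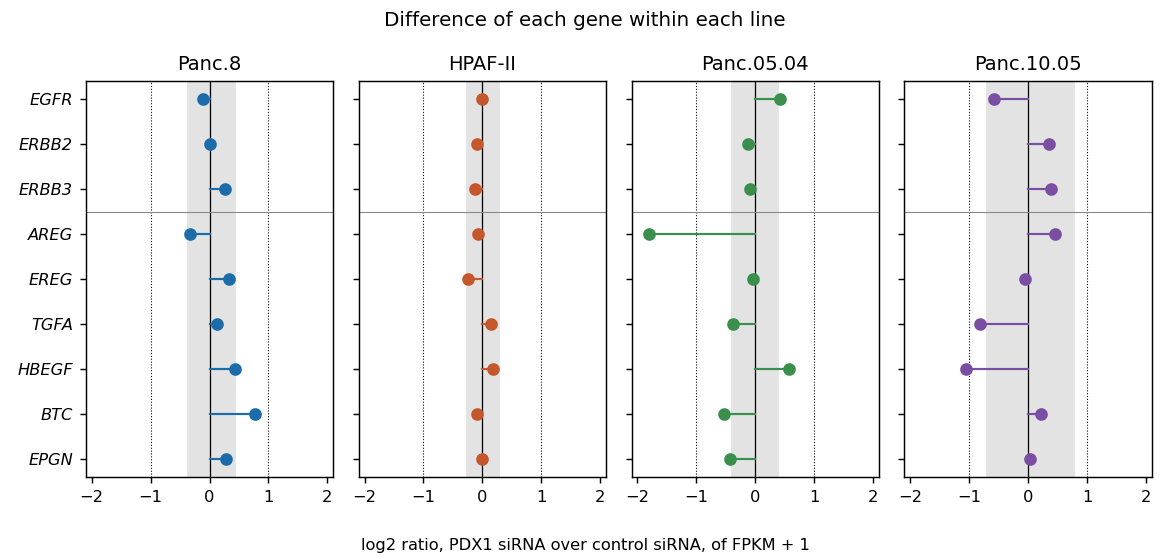
Points give the log2 ratio of FPKM + 1, PDX1 siRNA over control siRNA, for each gene in each line, with dotted lines at a 2-fold difference and the grey band holding tested genes between the 5th and 95th percentile. AREG at -1.80 in Panc.05.04 and HBEGF at -1.06 in Panc.10.05 lie past the dotted lines, EGFR, AREG and HBEGF have opposite signs in these lines, and HPAF-II points stay within the band.

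Other genes of the pathway were taken from 5 lists written for this purpose, and 0 of their 62 tested members passed an adjusted p of 0.05 in limma (4 at an unadjusted p under 0.05, where 440 of all 12110 genes were). The remaining receptor and ligand genes were mostly low. ERBB4 did not exceed 0.101 FPKM, NRG3 0.207 FPKM and EGF 1.37 FPKM, the last in Panc.10.05. NRG1, a neuregulin that binds ERBB3 and ERBB4, was at 19.6 and 18.5 FPKM in Panc.8 and at 0.843 FPKM or less in the other lines, and NRG4 at 3.76 and 2.44 FPKM in Panc.8. NRG2 was at 2.02 and 3.10 FPKM in Panc.10.05 and 1.56 and 1.66 FPKM in Panc.05.04.

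Of 7 tested genes for ligand release, 5 were higher and 2 lower on average, and their mean log2 ratios had a median of 0.07, against 0.01 over all tested genes. Among all tested genes 6379 were higher and 5731 lower on average. ADAM17, the main sheddase of AREG, TGFA and HBEGF, had a mean of 0.26 ± 0.13 (SD, n = 4; adjusted p = 0.898 in limma) and was higher in 4 of 4 lines, for example at 20.9 and 28.7 FPKM in Panc.10.05. RHBDF2, the inactive rhomboid that carries ADAM17 to the surface, was at 13.2 and 27.97 FPKM in Panc.10.05 and 26.1 and 21.0 FPKM in Panc.05.04, with a mean of 0.34 ± 0.65. RHBDL2, a rhomboid protease, had 0.20 ± 0.47 and ADAM10, the sheddase of BTC, 0.07 ± 0.06. Of 21 adaptors and kinases, 10 were higher and 11 lower, with a median of 0.00. GRB2, the adaptor between receptor and SOS, had 0.33 ± 0.20 (SD, n = 4; adjusted p = 0.898 in limma) and was higher in 4 lines. SOS2 had 0.16, STAT3 0.15 and the phosphatase PTPN11 -0.15. Of 15 inhibitors and genes of receptor removal, 11 were higher and 4 lower, with a median of 0.03. In Panc.10.05 5 of them were higher and 10 lower, and in each other line more were higher than lower. LRIG3 and LRIG2 had 0.15 each, SOCS5 0.14 and the EGFR inhibitor ERRFI1 -0.12.

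Of 17 transcription targets of the MAP kinase branch, 8 were higher and 9 lower, with a median of -0.02. SPRY1, a feedback inhibitor, had a mean of 0.70 ± 0.76, EMP1, a membrane protein, -0.42 ± 0.37, the ERK phosphatase DUSP6 -0.37 ± 0.57 and the cyclin CCND1 -0.32 ± 0.54 (SD, n = 4 lines; adjusted p = 0.898 for each in limma). Within lines, 1 of the 17 was at least 2-fold lower in Panc.05.04, and 1 was 2-fold higher and 2 were 2-fold lower in Panc.10.05, and the shares of all rows given above for these lines were 0.403% higher and 0.639% lower, and 3.09% higher and 1.71% lower. DUSP6 was at 62.4 and 26.0 FPKM in Panc.05.04, the line and direction of the AREG difference. Of the 17 genes, 7 were higher and 10 lower in Panc.05.04, with a median log2 ratio of -0.08. SPRY1 was among the higher ones there, with a log2 ratio of 0.73. Whether the list followed AREG in that line was not tested. In Panc.10.05 FOSL1, an AP-1 subunit, was at 459 and 169 FPKM, CCND1 at 136 and 63.0 FPKM and SPRY1 at 8.28 and 30.2 FPKM. The list thus had members on both sides in Panc.10.05, and its median there was -0.04.

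The genes whose 4 within-line ratios lay nearest to those of a member were found among 9053 genes with a mean of at least 5 FPKM, by the root mean square difference over the lines. AREG had no close match: LAPTM5 differed by 0.36, DUSP6 by 0.39 and IL1B by 0.40 on the log2 scale. For HBEGF the nearest were ABL2, E2F7 and TRNP1 at 0.16 to 0.17, and for BTC TIMP2, WFDC2 and MYD88 at 0.14 to 0.15. For TGFA they were PPP1R15A, KLF10 and ANTXR2 at 0.05 to 0.07, and for EREG SPIN4, NTS and NEK7 at 0.03 to 0.06. For EGFR they were DIS3L, HSPD1 and GEMIN5 at 0.04 to 0.06, for ERBB2 EML3, C9orf16 and CASC4 at 0.01 to 0.03, and for ERBB3 LGMN, ABCA7 and PIM3 at 0.03 to 0.06. Small differences are common for members whose own ratios are small, so these distances are a description over 4 lines.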

How the data were processed

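RNA-seq of 8 libraries was used, 1 control siRNA and 1 PDX1 siRNA library for each of 4 PDA lines. Per the submitters' processing notes the tools were Cuffdiff, Cufflinks and TopHat2 (version 2), and the build hg38. Their roles and the annotation file are unstated in the sources used here. Per the file headers, the authors deposited FPKM values with a p-value and q-value from Cuffdiff for each row. Those p-values compare 2 libraries, and are quoted as the authors'. FPKM is not a count, so no count model was used. Total depth is unknown. The commonest ratio among rows under 0.15 FPKM put the depth of the PDX1 siRNA library at 0.628 (Panc.8), 1.39 (HPAF-II), 0.840 (Panc.05.04) and 0.966 (Panc.10.05) of its control, an unsure estimate.

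Log2 ratios were taken within a table on log2(FPKM + 1), a scale that shrinks the ratio where FPKM is low. Genes with a mean of at least 1 FPKM (12110) entered a limma fit (limma 3.58.1, R 4.3.3) that blocks on the line and uses a trended eBayes prior (3 residual and 2.94 prior degrees of freedom), and adjusted by Benjamini-Hochberg. The fit was run on simulated data with independent noise and effects alike in all lines. The members here changed sign between lines, so that run does not bear on the absence of calls. The pairing comes from the labelled lines. After the group means were subtracted, r was at least 0.844 between the libraries of a line. Between libraries of different lines and different siRNAs it was at most -0.152, and subtracting means of 4 lines pushes such values below 0. Starts in the tables count from 0, so 1 was added. Tables and plots were made in Python 3.11.15 (pandas 2.3.3, matplotlib 3.10.9).

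The members, lists and tests were chosen with earlier results of these data known. Named genes were the members, PDX1, up to 4 genes per list with the largest mean ratio, and 3 nearest genes per tested member; FOSL1 and the low receptor and ligand genes were added after their values were seen. Of the list genes, ADAM9, HRAS and IER3 had several rows and NRAS shared one, and they were left out. Alternatives were other pseudocounts, filters, scaling, no block, no trend and leaving out each line.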

Additional observations from a re-analysis of the deposited data

Results flagged for a closer look

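AREG was at least 2-fold lower with PDX1 siRNA in Panc.05.04 (log2 ratio -1.80) and higher in Panc.10.05 (0.45), so the 2 lines had opposite signs. The difference between the lines was not tested, since each had 1 library per treatment. HBEGF was at least 2-fold lower in Panc.10.05 (log2 ratio -1.06) and higher in the other 3 lines (0.18 to 0.57), and this difference was not tested either.

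Among 27 sets of 4 values (levels under each siRNA and ratios of the 9 genes), 2 had a value far from the others, and chance gives about 1 in 20. The BTC level with PDX1 siRNA was lowest in Panc.05.04, where the gap to the next line was 0.849 of the whole range of log2(FPKM + 1). The EPGN level with control siRNA was highest in Panc.05.04, where the gap was 0.919 of the range. Both gaps exceed Dixon's critical value for 4 values.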

How the results depend on the processing

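No gene was called across lines under any alternative run: pseudocounts of 0.1 and 5 FPKM, no filter, a mean of at least 5 FPKM, libraries centred to the median, eBayes without trend, no block, or 1 line left out (0 genes in limma each time, with 2 to 631 genes at an unadjusted p under 0.05). Without the line as a replicate block the count was also 0, with 2 genes at an unadjusted p under 0.05, and no other call changed. Over all alternatives the members' adjusted p lay between 0.775 and 1. Mean log2 ratios near 0 changed sign: EREG was at 0.00075 with a pseudocount of 5 and BTC at -0.095 with a pseudocount of 0.1. Leaving out 1 line gave means from -0.24 to 0.10 for EGFR, -0.064 to 0.10 for ERBB2, 0.02 to 0.18 for ERBB3, -0.74 to 0.013 for AREG, -0.11 to 0.076 for EREG, -0.36 to -0.04 for TGFA, -0.15 to 0.39 for HBEGF and -0.13 to 0.30 for BTC. EGFR and ERBB2 changed sign without Panc.10.05, AREG without Panc.05.04, HBEGF without Panc.8, HPAF-II or Panc.05.04, BTC without Panc.8, and EREG without HPAF-II, Panc.05.04 or Panc.10.05. The cause was not tested. Within lines, a pseudocount of 0.1 moved EREG (-0.29) and BTC (-1.41) in Panc.05.04 and EPGN in Panc.8 (1.02) by more than their spread between lines, all under 1 FPKM, and the other 33 values stayed within it. Under centring and a pseudocount of 5, all 36 stayed within it, a spread that includes the large values themselves. With a pseudocount of 5 FPKM, AREG in Panc.05.04 (-0.9999) and HBEGF in Panc.10.05 (-0.80) were no longer 2-fold lower. Ratios of EPGN outside Panc.05.04 and of EREG in Panc.05.04 and Panc.10.05 are imprecise, since values there are near 0. The part of depth in these values was not tested.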

Other observations

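The signs of the 8 tested members were compared between pairs of lines, which share no control library. Between Panc.05.04 and Panc.10.05, 6 of 8 had opposite signs (EGFR, ERBB2, ERBB3, AREG, HBEGF and BTC), where 56.0% of all 12110 tested genes did. TGFA and EREG were lower in both lines, EREG from values near the floor. Between HPAF-II and Panc.10.05 and between Panc.8 and Panc.05.04 6 of 8 were opposite as well (49.2% and 48.5% of all genes), and between HPAF-II and Panc.05.04 2 of 8 (44.5%). The other pairs with Panc.8 had 4 of 8 (42.9% with HPAF-II and 44.7% with Panc.10.05). The counts include signs of ERBB3, EREG and BTC in Panc.05.04 and of EREG in Panc.10.05, which were under 1 FPKM in both libraries. No test was made of these counts.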
